A study of Mus musculus with 2 samples.

Results

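The genes described here are 42 chromatin regulators, most of whose human counterparts are mutated in neurodevelopmental disorders, taken by symbol from 43346 annotated mouse genes. They were chosen for their function and disease links and not for their level, although earlier results of these data were known. All 42 were matched by gene identifier in both libraries. They fall into 11 groups by role, namely the Polycomb complex PRC2, the writers of histone H3 lysine methylation in 3 classes, histone demethylases, CHD remodelers, ARID subunits of the BAF and PBAF remodelers, histone acetyltransferases, class I deacetylases, adaptor and zinc finger proteins, and cohesin with its loader and CTCF.

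The study measured total RNA from whole forebrain of newborn B6NCrl mice on postnatal day 0, with 1 library from pup 1 and 1 from pup 3. B6NCrl is a C57BL/6 substrain, the labels state no treatment or mutation, the sex was not collected, and each library was made from 10 ng of RNA longer than 200 nt. Both libraries belong to 1 group, so the design holds no contrast between conditions, and errors below are the SD over 2 pups. Each library came from a single forebrain per the labels, but both pups carry the same donor identifier, so the spread between them may be partly technical.

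Chromatin regulators place, remove and read chemical marks on histones, slide or evict nucleosomes, and fold the genome into loops. In the developing forebrain they help to keep progenitor genes open, to silence genes of other lineages and to switch neuronal programmes on as cells stop dividing. Most of the disorders arise when a single working copy is lost, which makes the dose of these genes matter.

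The libraries held 40066386 expected counts for pup 1 and 40431595 for pup 3, and single members held between 383 and 11218 counts in pup 1 and between 325 and 13239 in pup 3. The 42 genes together took 0.328% and 0.264% of all counts. All 8 forebrain identity genes reached 1 TPM (a level per transcript length, scaled to the same total in each library) in both pups, against 1 of 8 midbrain and hindbrain genes, Gata3. In bulk tissue, fewer cells of a type and less RNA per cell cannot be told apart.

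All 42 regulators reached 1 TPM in both pups, whereas 60.7% of 21474 protein-coding genes did, which are called detected below. Their median level was 13.0 ± 3.75 TPM (SD, n = 2), with 16.2 TPM in pup 1 and 10.9 TPM in pup 3. Detected protein-coding genes had a median of 17.0 TPM, and 20 of the 42 regulators lay above it. Hdac2 and Hdac3 exceeded 100 TPM, 16 genes lay between 20 and 100 TPM, 11 between 10 and 20 TPM, and 13 below 10 TPM. Detection was thus complete, while the typical level sat at percentile 43.0 of detected protein-coding genes.

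**Figure D1:**
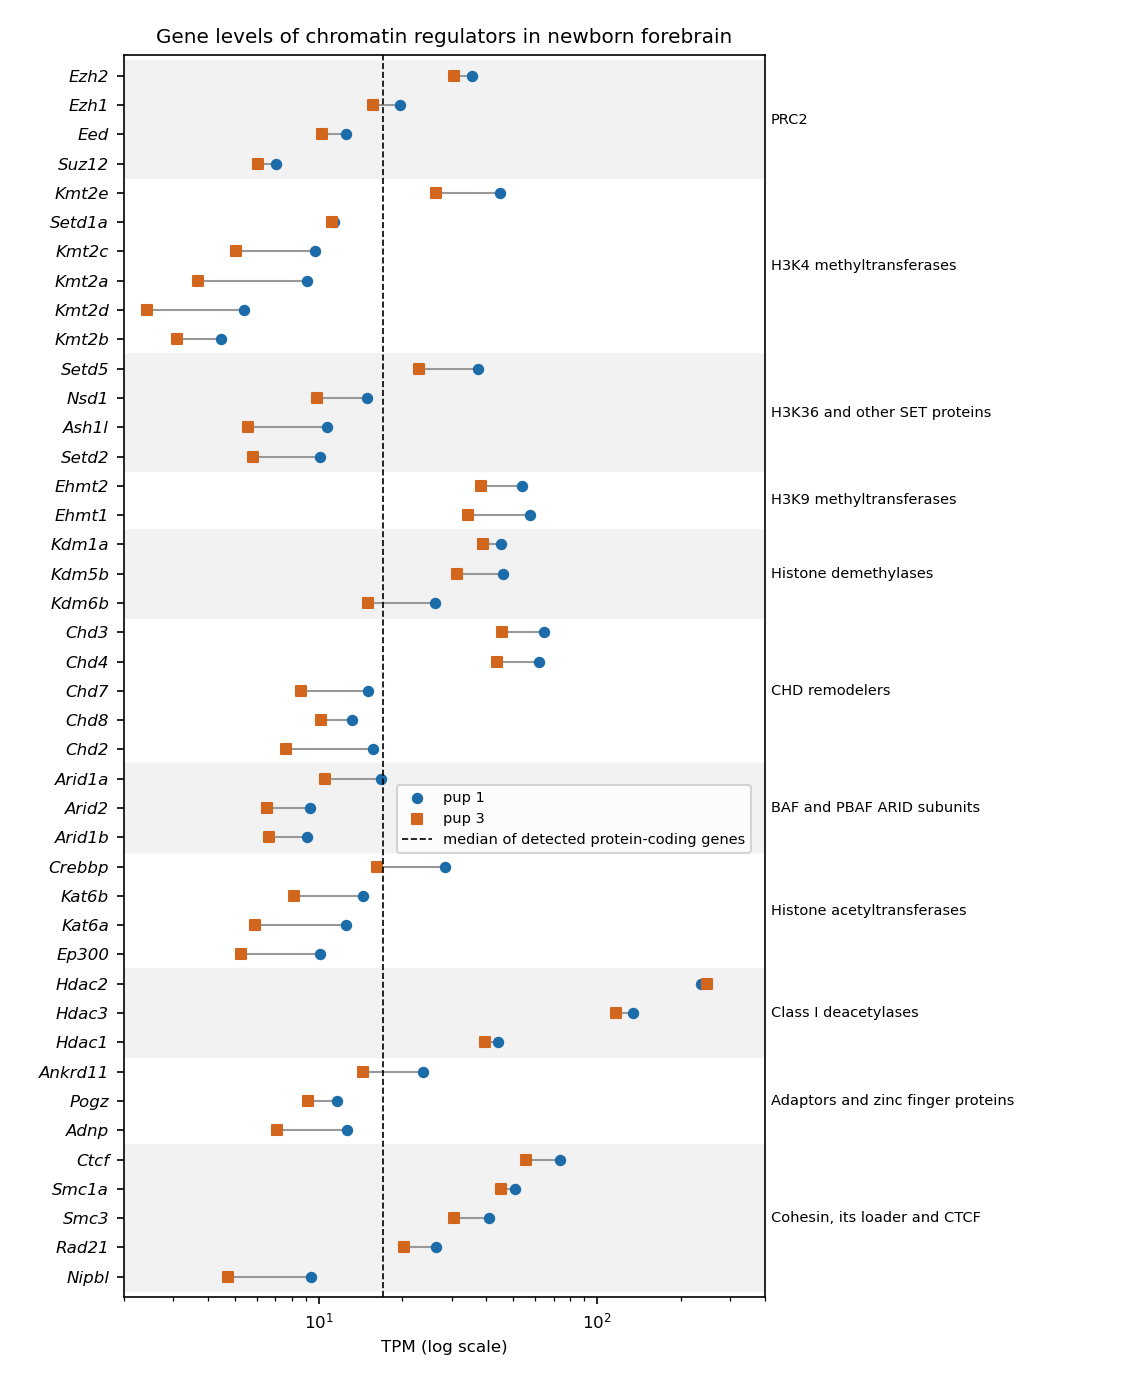
TPM of each regulator in pup 1 (circles) and pup 3 (squares) on a log axis, grouped by role and ordered by mean level within a role. A line joins the pups, and the dashed line marks 17.0 TPM, the median over detected protein-coding genes. Hdac2 stands highest at 236.7 and 247.2 TPM, Kmt2d and Kmt2b stand lowest, and only Hdac2 has its square to the right of its circle.

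The pups differed in overall scale before any gene was singled out. On the deposited TPM, 41 of 42 regulators were lower in pup 3, and so were 80.4% of 14985 genes with a mean of 1 TPM or more. A trimmed-mean (TMM) scaling of the TPM placed this general shift at −0.27 on the log2 scale, and the same scaling of expected counts at −0.11. Ratios from here on are log2 of pup 3 over pup 1, computed on TPM + 0.1, with the shift of −0.27 subtracted. On that scale 34 of 42 regulators were lower in pup 3, against 49.5% of all genes. A difference of 1.5-fold or more was reached by 8 regulators, all lower in pup 3, where 12.2% of all genes reached it in either direction, 7.87% lower and 4.38% higher. A difference of 2-fold was reached by Kmt2a alone at −1.01, against 3.06% of all genes, and was lost with DESeq2 size factors (−0.995), posterior mean TPM (−0.97), expected counts (−0.87), a pseudocount of 1 (−0.83) and long coding transcripts (−0.74). With 1 library per animal there is no replicate check of a difference between pups, so these counts describe 2 libraries.

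Some markers of regions and cell types also differed between the pups. The 6 thalamus and hypothalamus genes summed to 292 TPM in pup 1 and 110 TPM in pup 3, a ratio of −1.14 after the shift, and the 4 with a mean of 1 TPM or more were each 1.5-fold or more lower in pup 3. The 8 forebrain identity genes summed to 526.7 and 607 TPM, a ratio of 0.48, with Emx1 and Neurod6 1.5-fold or more higher in pup 3 and Emx2 lower. Neurod6 alone held 206.2 and 329.5 TPM of these sums. The median ratio of the 8 genes was 0.12, with 2 of 8 lower in pup 3. In the list of 6 endothelium and blood genes the sum was 1720 and 2403 TPM, mostly from the globins Hba-a2 and Hbb-bs. Of its endothelial genes, Kdr was lower in pup 3 at −0.41, while Cldn5 and Pecam1 were higher at 0.33 and 0.31. The 8 neuronal genes summed to 5830 and 4830 TPM, a ratio of 0.00 after the shift. Their median ratio was −0.18, with 5 of 8 lower in pup 3, and none was 1.5-fold apart. Nor was any of 8 progenitor, 7 oligodendrocyte lineage or 5 astrocyte genes, whose sums had ratios of 0.17, 0.02 and −0.13. Of 6 microglia genes 1 was 1.5-fold or more lower, Cx3cr1, and their sum had a ratio of 0.25. The part of the marker differences in the results below was not tested.

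PRC2 deposits the repressive methyl mark on lysine 27 of histone H3. Ezh2, the catalytic subunit of dividing cells and the gene of Weaver syndrome, had 35.4 TPM in pup 1 and 30.5 TPM in pup 3. Ezh1, the catalytic subunit that persists in cells that no longer divide, had 19.7 and 15.7 TPM. Ezh2 was above Ezh1 in both pups, by 1.80-fold and 1.94-fold, and the mean log2 ratio of 0.90 ± 0.08 (SD, n = 2) exceeded 3 SD, the rule used below for a ratio larger than the spread between pups. Eed, which binds the mark and activates the enzyme, had 12.5 and 10.3 TPM. Suz12, the scaffold subunit, had 7.04 and 6.05 TPM and was the lowest of the complex, below Eed by 1.77-fold and 1.68-fold. After the general shift the pups lay within 0.06 log2 units of each other for all 4 subunits.

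The transcript behind the PRC2 levels was stable for Ezh2 and Eed but not for Suz12 and Ezh1. Ezh2-201 gave 53.3% and 56.9% of the Ezh2 TPM. Suz12-201, a 4373-nt coding transcript, gave 92.8% of the Suz12 TPM in pup 1 and 58.1% in pup 3. The remainder in pup 3 was largely Suz12-206, with 38.5% there and 0% in pup 1. They differ by an in-frame 69-base coding exon, 23 codons long, at chr11:79999057-79999125 on the plus strand of GRCm38. Among the exons examined here, in Suz12, Ehmt2 and Kdm1a, the pups differed most at this one. It is printed below in capitals with 30 coding bases on either side, followed by the junction without it.
Suz12 with the 69-base exon: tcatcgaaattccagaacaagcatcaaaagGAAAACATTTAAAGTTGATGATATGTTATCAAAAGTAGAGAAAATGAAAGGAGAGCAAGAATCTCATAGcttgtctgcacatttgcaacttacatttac
Suz12 without it: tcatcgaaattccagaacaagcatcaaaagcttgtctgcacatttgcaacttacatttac
Transcripts with the exon held 100% of the TPM of transcripts that carry or skip it in pup 1 and 60.1% in pup 3. By the posterior mean TPM, an estimate that moves shares away from 0 and 100%, the values were 86.9% and 62.7%. Pup 1 was the higher by both estimates. For Ezh1, the leading transcript was Ezh1-203 in pup 1 with 57.2% and Ezh1-201 in pup 3 with 33.9%. Ezh1-203 held 28.9% in pup 3, but its posterior mean share was 25.9% and 27.3%, so the gap between the pups is not seen by that estimate.

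The writers of methylation on lysine 4 of histone H3 mark promoters and enhancers of active genes, and most of them were at low levels. Kmt2e, a reader protein of this family linked to autism, was the highest with 44.8 TPM in pup 1 and 26.4 TPM in pup 3, and Kmt2e-201 gave 81.2% and 80.8% of it. Setd1a, a schizophrenia risk gene, had 11.3 and 11.2 TPM, the closest pair of values of any regulator on the deposited scale, and 0.26 higher in pup 3 after the shift. The 730-nt Setd1a-203 held 67.5% and 70.0% of that TPM. The Setd1a ratio was −0.11 on expected counts with TMM scaling and −0.22 on long coding transcripts, so its direction turned. Kmt2c, an enhancer methyltransferase and the gene of Kleefstra syndrome type 2, had 9.71 and 5.04 TPM. These 3 genes covered the upper part of the group, and after the shift pup 1 was the higher for Kmt2e and Kmt2c.

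Kmt2a and Kmt2d had the lowest ratios of the 42 genes after the shift, although with a pseudocount of 1 Kat6a at −0.70 and Chd2 at −0.67 lay below Kmt2d at −0.62. Kmt2a (ENSMUSG00000002028.8, chr9:44803355-44881296), the gene of Wiedemann-Steiner syndrome and the mouse counterpart of MLL, had 9.10 TPM in pup 1 and 3.69 TPM in pup 3. Its ratio after the shift was −1.01, and its expected counts were 2151 and 1094. Kmt2d (ENSMUSG00000048154.12, chr15:98831669-98871204), the main gene of Kabuki syndrome, had 5.38 and 2.43 TPM. The ratio of Kmt2d was −0.84, with 2639 and 1350 expected counts. Kmt2b, mutated in a childhood dystonia, was the lowest of all 42 regulators by mean level, with 4.48 and 3.11 TPM. Its leading entry was Kmt2b-207, a 571-nt retained-intron transcript with 53.0% and 47% of the TPM but 7.27% and 5.97% of the counts.

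The SET-domain proteins of the next group act mainly on lysine 36 of histone H3, a mark of transcribed gene bodies. Setd5, an autism gene whose own enzymatic activity is debated, had 37.4 TPM in pup 1 and 23.0 TPM in pup 3. Nsd1, the gene of Sotos syndrome, had 15 and 9.85 TPM. Ash1l, linked to autism and intellectual disability, had 10.7 and 5.60 TPM, a ratio of −0.65 after the shift. Setd2, the trimethylating enzyme and the gene of Luscan-Lumish syndrome, had 10.1 and 5.80 TPM. All 4 were lower in pup 3 after the shift, and Ash1l passed 1.5-fold. Ash1l overlaps Dap3, a gene on the opposite strand with 110.5 and 117.0 TPM, and no source used here states whether the counting kept strands apart. The gene level of Setd5 needs a reservation, because Setd5-212, a 3334-nt processed transcript without a reading frame, led in pup 1 with 21.4% of the TPM. It held 18.6% in pup 3, where an entry that is not in GENCODE M21 led with 19.6%.

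Ehmt1 and Ehmt2 form the heterodimer that places mono- and dimethylation on lysine 9 of histone H3, a mark of silenced euchromatin. Ehmt1, the gene of Kleefstra syndrome, had 57.6 TPM in pup 1 and 34.3 TPM in pup 3. Ehmt2, also known as G9a, had 53.8 and 38.1 TPM. Ehmt1 was the higher in pup 1 by 1.07-fold and the lower in pup 3 by 1.11-fold, so the levels of the dimer partners did not differ beyond the pup spread.

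Ehmt2 is spliced with or without an in-frame 102-base exon, 34 codons long, whose inclusion is known to accompany neuronal differentiation. The exon lies at chr17:34905610-34905711 on the plus strand of GRCm38, and is shown in capitals with its flanks because it separates the 2 main forms of the enzyme.
Ehmt2 with the 102-base exon: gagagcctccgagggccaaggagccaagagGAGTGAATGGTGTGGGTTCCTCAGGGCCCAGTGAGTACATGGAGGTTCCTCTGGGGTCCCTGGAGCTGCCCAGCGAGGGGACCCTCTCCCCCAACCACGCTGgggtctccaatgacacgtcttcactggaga
Ehmt2 without it: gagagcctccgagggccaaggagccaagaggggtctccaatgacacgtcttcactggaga
Ehmt2-204, which carries the exon, led with 33.5% and 30.3% of the gene's TPM. Among transcripts that carry or skip the exon, those with it held 78.8% in pup 1 and 76.7% in pup 3, or 77.8% ± 1.53 (SD, n = 2). The longer form was the major one in both pups.

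Histone demethylases remove these marks. Kdm1a, also known as LSD1, acts on lysine 4 of histone H3 within the CoREST complex and had 45.0 TPM in pup 1 and 38.8 TPM in pup 3. Kdm5b, which removes trimethylation from the same residue, had 45.8 and 31.3 TPM. Kdm6b, which removes the PRC2 mark and is linked to intellectual disability, had 26.2 and 15.1 TPM. Kdm1a was 0.06 higher in pup 3 after the shift, while Kdm5b and Kdm6b were lower by less than 1.5-fold.

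Kdm1a (ENSMUSG00000036940.11, chr4:136550540-136602723, minus strand) carries a pair of optional in-frame exons. The 12-base exon at chr4:136563438-136563449, 4 codons long, is known as the neuronal exon of this enzyme. The 60-base exon at chr4:136582040-136582099, 20 codons long, is found in many tissues. Both are shown in capitals on the gene's strand, since the choice between them defines the enzyme's known forms.
Kdm1a with the 12-base exon: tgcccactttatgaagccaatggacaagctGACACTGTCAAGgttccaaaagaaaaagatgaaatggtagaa
Kdm1a without the 12-base exon: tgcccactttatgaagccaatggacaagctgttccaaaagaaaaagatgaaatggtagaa
Kdm1a with the 60-base exon: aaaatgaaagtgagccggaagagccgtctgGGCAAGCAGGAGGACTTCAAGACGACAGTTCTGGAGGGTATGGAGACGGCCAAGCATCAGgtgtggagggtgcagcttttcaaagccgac
Kdm1a without the 60-base exon: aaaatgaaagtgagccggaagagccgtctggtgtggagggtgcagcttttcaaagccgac
Transcripts with the 12-base exon held 14.6% in pup 1 and 16.7% in pup 3, or 15.7% ± 1.44 (SD, n = 2). Transcripts with the 60-base exon held 42.6% and 38.6%, or 40.6% ± 2.77 (SD, n = 2). The form without either exon, Kdm1a-203, led with 46.2% and 48.2% of the gene's TPM. A single annotated entry, the partial 965-nt Kdm1a-208, carries the 12-base exon, so its share rests on how reads were divided between that short entry and the full-length forms. By expected counts Kdm1a-208 held 4.75% and 5.52% of the gene.

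**Figure D2:**
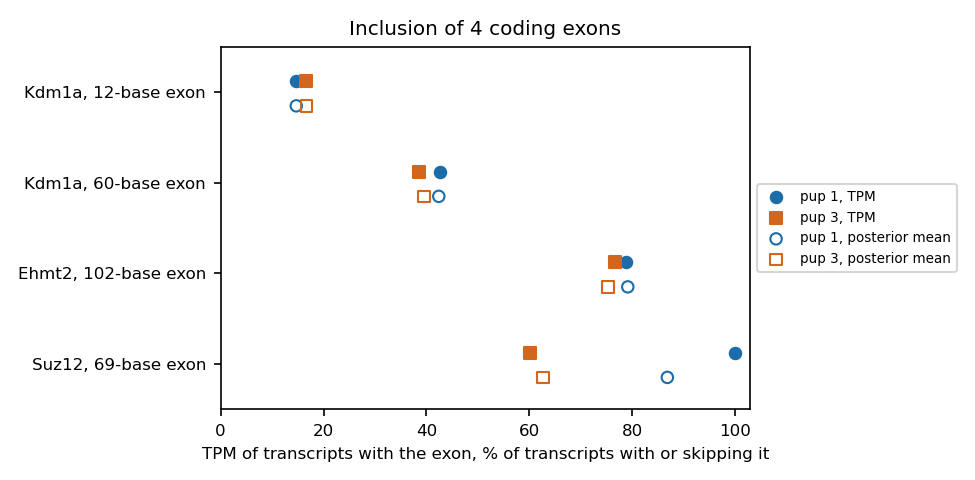
Share of the TPM of transcripts that carry an exon, as a percent of the transcripts that carry or skip it, in pup 1 (circles) and pup 3 (squares), from TPM (filled) and posterior mean TPM (open). The pups lie within 4 percentage points for the Kdm1a and Ehmt2 exons by TPM and posterior mean TPM, while for Suz12 they lie at 100% and 60.1% by TPM.

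CHD remodelers use ATP to move nucleosomes. Chd3 and Chd4 are alternative motors of the NuRD corepressor. Chd3, the gene of Snijders Blok-Campeau syndrome, had 64.2 TPM in pup 1 and 45.5 TPM in pup 3. Chd4, the gene of Sifrim-Hitz-Weiss syndrome, had 61.9 and 43.6 TPM. The NuRD motors were near-equal, since Chd4 was below Chd3 by only 1.04-fold in each pup, a difference that exceeded the small pup spread on gene levels but not on long coding transcripts. Both levels rested on retained-intron entries. Chd3-203, of 2153 nt, gave 42.7% and 48.4% of the Chd3 TPM and 22.5% and 25.2% of its counts. Chd4-208, of 369 nt, gave 51.7% and 49.7% of the Chd4 TPM but 4.68% and 4.59% of its counts.

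The other CHD genes were lower. Chd7, the gene of CHARGE syndrome, had 15.1 TPM in pup 1 and 8.67 TPM in pup 3. Chd8, an autism gene whose product represses Wnt targets, had 13.2 and 10.2 TPM. Chd2 (ENSMUSG00000078671.6, chr7:73426638-73541830), mutated in a childhood epilepsy, had 15.6 and 7.65 TPM and a ratio of −0.75 after the shift. Chd2 was the only CHD gene past 1.5-fold. Its leading transcript differed between the pups, being the 751-nt Chd2-201 with 34.4% in pup 1 and the 9032-nt Chd2-203 with 41.2% in pup 3. By counts Chd2-203 held 88.8% and 92.2%.

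ARID subunits target the SWI/SNF remodelers, BAF and PBAF. Arid1a and Arid1b, alternative subunits of BAF that are both linked to Coffin-Siris syndrome, had 16.7 and 9.11 TPM in pup 1. In pup 3 they had 10.5 and 6.64 TPM. Arid1a was above Arid1b by 1.83-fold and 1.58-fold, more than the pup spread. Arid2, the PBAF subunit, had 9.35 and 6.52 TPM. Arid1a-205 gave 91.0% and 89.6% of the Arid1a TPM, and no ARID gene passed 1.5-fold between the pups.

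Histone acetyltransferases mark active promoters and enhancers. Crebbp and Ep300 are the paralogous coactivators of Rubinstein-Taybi syndrome. Crebbp had 28.5 TPM in pup 1 and 16.2 TPM in pup 3, and Crebbp-201 made up 98.7% and 99.3% of it. Ep300 had 10.1 and 5.27 TPM, with a ratio of −0.66 after the shift. Crebbp exceeded Ep300 by 2.80-fold and 3.03-fold. Kat6b, linked to genitopatellar and Ohdo syndromes, had 14.5 and 8.14 TPM. Kat6a (ENSMUSG00000031540.9, chr8:22859535-22943259), the gene of Arboleda-Tham syndrome, had 12.6 and 5.91 TPM, a ratio of −0.81. All 4 acetyltransferases were lower in pup 3 after the shift, and Ep300 and Kat6a passed 1.5-fold. Kat6a-201 gave 71.9% of the Kat6a TPM in pup 1 and 90.6% in pup 3, and the 419-nt processed transcript Kat6a-203 had 2.09 TPM in pup 1 and 0 TPM in pup 3.

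Class I deacetylases remove acetyl groups within the NuRD, SIN3, CoREST and NCoR corepressors, and they had the highest median of the 11 groups, 125.8 TPM. Hdac2 (ENSMUSG00000019777.12, chr10:36974544-37001889) had 236.7 TPM in pup 1 and 247.2 TPM in pup 3, or 242 ± 7.43 TPM (SD, n = 2), at percentile 95.3 of detected protein-coding genes. Hdac3, the NCoR enzyme, had 134.5 and 117.1 TPM. Hdac1, the paralog of Hdac2, had 44.0 and 39.4 TPM. Hdac2 exceeded Hdac1 by 5.37-fold in pup 1 and 6.26-fold in pup 3, and Hdac3 exceeded Hdac1 by 3.05-fold and 2.97-fold. Both ratios were larger than the pup spread. Hdac2-201 gave 99% and 99.5% of the Hdac2 TPM. After the general shift all 3 were slightly higher in pup 3, with Hdac2 at 0.33, Hdac1 at 0.11 and Hdac3 at 0.07.

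The adaptor and zinc finger proteins bind chromatin and bring in other complexes. Ankrd11, the gene of KBG syndrome, had 23.7 TPM in pup 1 and 14.5 TPM in pup 3. Pogz, the gene of White-Sutton syndrome, had 11.7 and 9.19 TPM. Adnp, the gene of Helsmoortel-Van der Aa syndrome, had 12.7 and 7.07 TPM. None passed 1.5-fold after the shift, although Adnp came close at −0.56. Ankrd11-202 gave 63.0% and 74.0% of the Ankrd11 TPM, and Adnp-202 gave 76.2% and 88.4% of the Adnp TPM.

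Cohesin is a ring that extrudes DNA loops until it meets CTCF, and the loader NIPBL puts it on chromatin. The ring subunits Smc1a, Smc3 and Rad21 are mutated in Cornelia de Lange syndrome or related disorders. Smc1a had 50.7 TPM in pup 1 and 45.3 TPM in pup 3. Smc3 had 40.8 and 30.7 TPM. Rad21 had 26.5 and 20.3 TPM. Rad21 was below Smc3 by 1.54-fold and 1.51-fold, more than the pup spread, whereas Smc3 below Smc1a by 1.24-fold and 1.47-fold was not. Nipbl, the loader and the main Cornelia de Lange gene, was far lower with 9.42 and 4.74 TPM and a ratio of −0.70. Nipbl was the only gene of the group past 1.5-fold.

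Ctcf (ENSMUSG00000005698.11, chr8:105636568-105682922), the loop anchor and itself a gene of intellectual disability, had 73.3 TPM in pup 1 and 55.4 TPM in pup 3. It was the third highest regulator by gene level. The 528-nt processed transcript Ctcf-202 gave 62.3% and 57.3% of that TPM and 18.3% and 15.5% of the counts. The coding transcript Ctcf-201 had 22.2 and 19.1 TPM. Gm5914, a noncoding gene on the opposite strand of Ctcf, had 80.2 and 102.9 TPM. Expected counts of Ctcf and Gm5914 were fractional, at 2659.71 and 498.29 in pup 1 and 2478.7 and 725.11 in pup 3. Added together, the counts of these genes were whole in pup 1 but not in pup 3. How reads were divided between the strands was not tested.

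Entries without a full reading frame thus held much of several gene levels, and the share of TPM in long coding transcripts was computed for all 42. A long coding transcript is an annotated protein-coding transcript whose coding sequence reaches 75% or more of the gene's longest one. This threshold was chosen after the data were seen. The median share was 86.2%, with 83.3% in pup 1 and 86.5% in pup 3, against 95.8% for detected protein-coding genes. By TPM it was under 50% in 12 of 42 regulators, against 15% of detected protein-coding genes. Among genes with 2 or more transcripts the medians were 81.0% and 86.0%, so the comparison also reflects how many transcripts are annotated. At the other end, 19 of 42 had 90% or more, against 58.7% of detected protein-coding genes. Arid1b is among them with the threshold of 75%, but with a threshold of 90% of the longest coding sequence its share was 18% and 13.0%.

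The 12 genes under 50% of TPM, by the mean of both pups, were Setd5, Chd7, Kmt2b, Kmt2c, Setd1a, Ctcf, Ep300, Chd2, Ehmt1, Chd3, Chd4 and Kmt2a. By expected counts Setd5 (19.7% and 18.1%), Chd7 (31.7% in each pup) and Kmt2c (41.5% and 42.8%) stayed under 50%. Kmt2b had 50.4% and 37.5% by counts. The rest of the 12 had more than 50% by counts in both pups, with Ep300 at 67.8% and 68.4% and Chd4 at 93.5% and 91.9%. By TPM Setd5 was the lowest with 9.10% in pup 1 and 8.86% in pup 3, which left 3.40 and 2.04 TPM in long coding transcripts. Its entry that is not in M21, with 13.3% and 19.6% of the TPM, has no coding length there and was not counted as long coding. Chd7 followed with 10.5% and 10.6%, which left 1.58 and 0.92 TPM. In Chd7 the rest came from shorter transcripts that are annotated as coding, led by the 2381-nt Chd7-203 with 68.2% and 63.6%. The leading transcript was annotated as coding in 37 of 42 regulators, against 92.9% of detected protein-coding genes, and the exceptions were Kmt2b, Setd5, Chd3, Chd4 and Ctcf. The same transcript led in both pups in 39 of 42, against 93.6% of detected protein-coding genes, and the exceptions were Ezh1, Setd5 and Chd2. Setd2, Nsd1, Nipbl and Rad21 have a single annotated transcript and no such ambiguity.

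**Figure D3:**
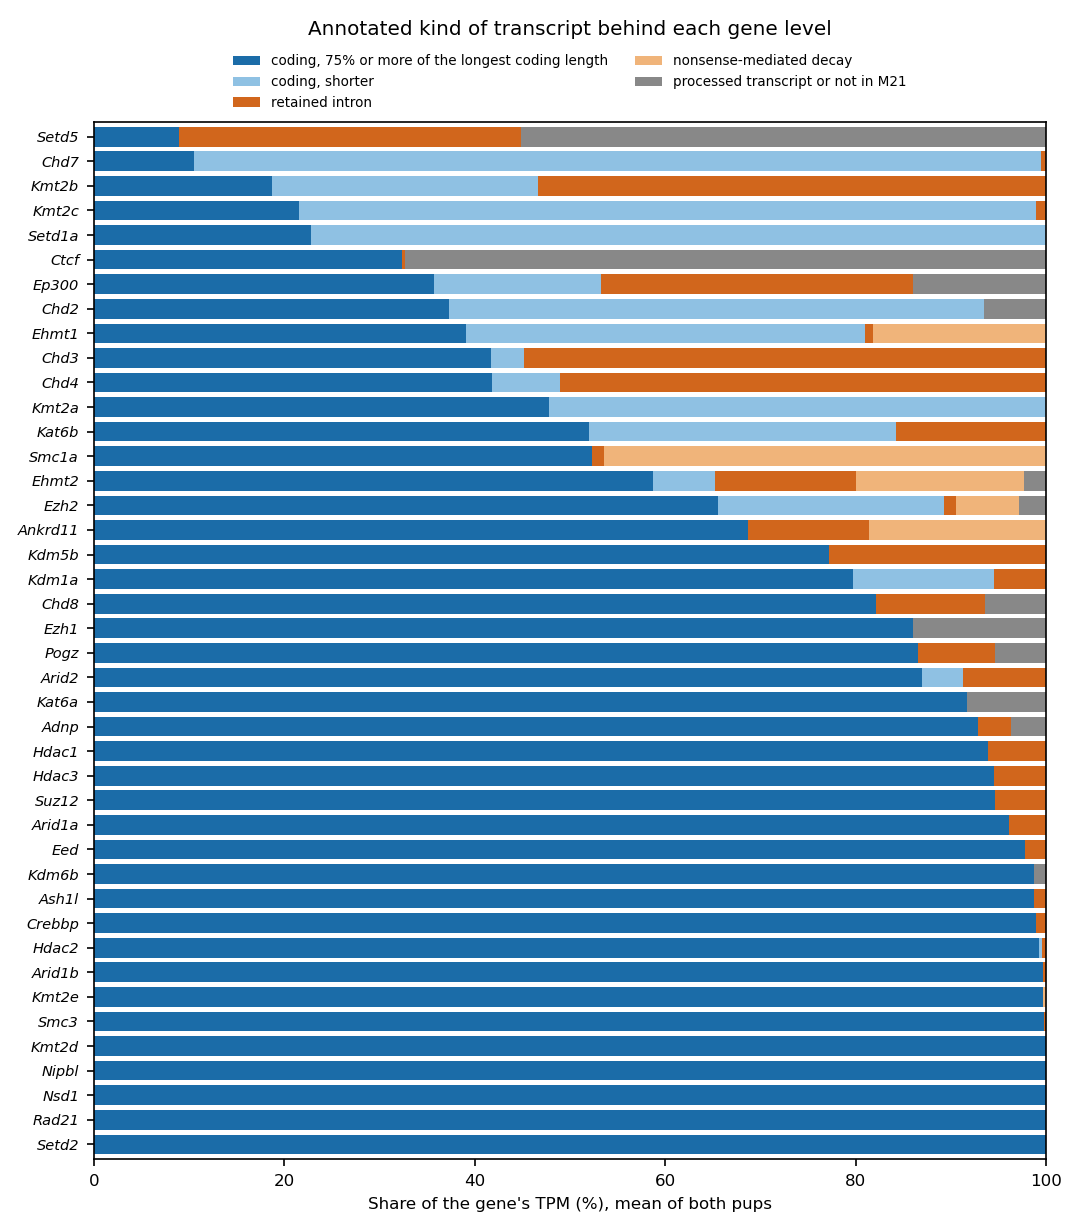
Mean share of each gene's TPM over both pups, in percent, by annotated kind of transcript, with genes ordered by the share in long coding transcripts. Setd5 and Chd7 at the top have under 11% in long coding transcripts, 12 genes have under 50%, and Kmt2d, Nipbl, Nsd1, Rad21 and Setd2 have 100%.

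The order of the regulators changed where only long coding transcripts were counted. Hdac2 and Hdac3 stayed highest, with 234.3 and 245.8 TPM for Hdac2 and 125.4 and 112.2 TPM for Hdac3. Ctcf moved from rank 3 to rank 15 and Chd4 from rank 5 to rank 12, with 26.5 and 17.9 TPM left for Chd4. Setd5, with its entry that is not in M21 left out, moved from rank 15 to rank 37, and Chd7 from rank 23 to rank 41. Kmt2e moved up from rank 13 to rank 5 and Smc3 from rank 12 to rank 4. TPM divides reads by transcript length, so a few reads assigned to a 369-nt entry weigh as much as many on a full-length transcript.

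Ratios within a library, which no scaling between pups can alter, were compared for 15 pairs of paralogs or partner subunits. Of these, 10 exceeded the pup spread on gene levels and 11 on long coding transcripts. The share of other gene pairs that pass this rule was not computed, so the counts cannot be set against a background. An exact sign-flip test with 2 animals cannot give a p below 0.5, so the rule of 3 SD is a description. The pairs not yet described were Setd1a over Setd1b, a partner gene outside the 42, at 2.13-fold and 2.80-fold, Kmt2a over Kmt2b at 2.01-fold and 1.18-fold, and Kat6a below Kat6b at 1.15-fold and 1.37-fold. The Kmt2a and Kat6a pairs did not exceed the spread.

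The direction of 3 pairs turned with the kind of transcript counted. Kmt2c was above Kmt2d by 1.79-fold in pup 1 and 2.03-fold in pup 3 on gene levels. On long coding transcripts Kmt2d was above Kmt2c by 2.58-fold and 2.06-fold, and both ratios exceeded the pup spread. Kmt2c has its TPM spread over shorter coding transcripts, led by the 6443-nt Kmt2c-208 with 35.7% and 44.2%, and its full-length Kmt2c-201 of 14967 nt had 2.02 and 1.13 TPM. Smc3 came out above Smc1a by 1.59-fold and 1.25-fold. Smc1a-206, annotated for nonsense-mediated decay, held 47.8% and 45.0% of the Smc1a TPM. Kat6a came out above Kat6b by 1.55-fold and 1.25-fold. Neither of the last pairs exceeded the spread on either scale.

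Other pairs changed in size. Crebbp was above Ep300 by 8.12-fold and 7.69-fold on long coding transcripts, where Ep300 had 3.38 and 2.00 TPM. Chd8 and Chd7 were near-equal on gene levels, at 0.88-fold and 1.18-fold, but Chd8 was 6.47-fold and 8.42-fold above Chd7 on long coding transcripts. Chd7 had only 1.58 and 0.92 TPM on that scale, although these transcripts held 31.7% of its counts in each pup. Kmt2a was above Kmt2b by 3.94-fold and 3.24-fold on long coding transcripts, where Kmt2b had only 0.93 and 0.52 TPM. Hdac2 over Hdac1 moved little, to 5.81-fold and 6.44-fold.

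**Figure D4:**
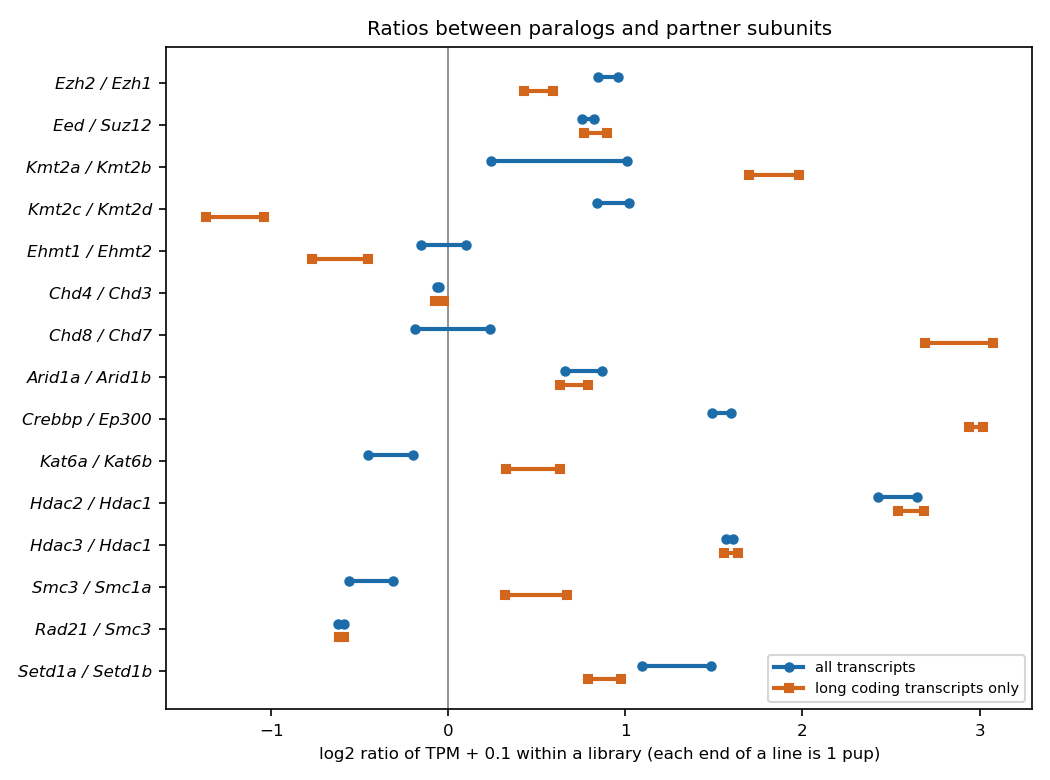
Log2 ratio of TPM + 0.1 between the genes of 15 pairs, with the values of both pups joined by a line, from all transcripts (circles) and from long coding transcripts (squares). Kmt2c over Kmt2d lies at 0.84 and 1.02 from all transcripts and at −1.37 and −1.04 from long coding transcripts, while Hdac2 over Hdac1 lies above 2.4 on both.

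The 8 regulators that were 1.5-fold or more lower in pup 3 were Kmt2a, Kmt2d, Kat6a, Chd2, Nipbl, Kmt2c, Ep300 and Ash1l, with ratios from −1.01 to −0.65. On the deposited TPM, without the shift subtracted, the first 4 were lower by 2-fold or more, against 4.82% of all genes. Kmt2a, Kmt2d and Nipbl were also 1.5-fold apart from expected counts, from long coding transcripts and with a pseudocount of 1. For Chd2, Ep300 and Kat6a the difference fell short of 1.5-fold when short entries were left out or weighed by reads. Their ratios on long coding transcripts were −0.44, −0.46 and −0.55, and those on expected counts with TMM scaling were −0.49, −0.48 and −0.55. Kmt2c had −0.51 on long coding transcripts and −0.60 on counts, and Ash1l had −0.63 on both but −0.55 with a pseudocount of 1.

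These 8 genes are long, as are the regulators in general. The median longest coding sequence was 5482.5 bases for the 42 regulators and 1380 bases for detected protein-coding genes. Across the 42 genes the ratio between pups and log2 coding length had Pearson's r of −0.73 and Spearman's rho of −0.71. Across 13015 detected protein-coding genes r was −0.42 and rho −0.44, and across 60 partner genes they were −0.35 and −0.36. These correlations run across genes of the same 2 libraries, which are not independent replicates, and describe those libraries only. The part of coding length in the differences was not tested.

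The same pattern appeared when genes were binned by coding length. Detected protein-coding genes under 1500 bases had a median ratio of 0.11, those of 1500 to below 3000 bases −0.07, those of 3000 to below 6000 bases −0.21 and those of 6000 bases or more −0.32. The regulators in those bins numbered 4, 6, 15 and 17, and their medians were 0.09, 0.00, −0.28 and −0.52. Of the 17 regulators of 6000 bases or more, 7 were 1.5-fold or more lower in pup 3, where 21.1% of 308 detected genes of that length were. Of the 15 regulators of 3000 to below 6000 bases, Chd2 was 1.5-fold or more lower, where 11% of genes of that length were. None of the 10 regulators under 3000 bases did, where 6.54% of genes of 1500 to below 3000 bases and 3.95% of shorter ones did. Level also went with length, with r of −0.62 across the 42 genes between log2 mean TPM and log2 coding length and −0.31 across detected protein-coding genes.

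**Figure D5:**
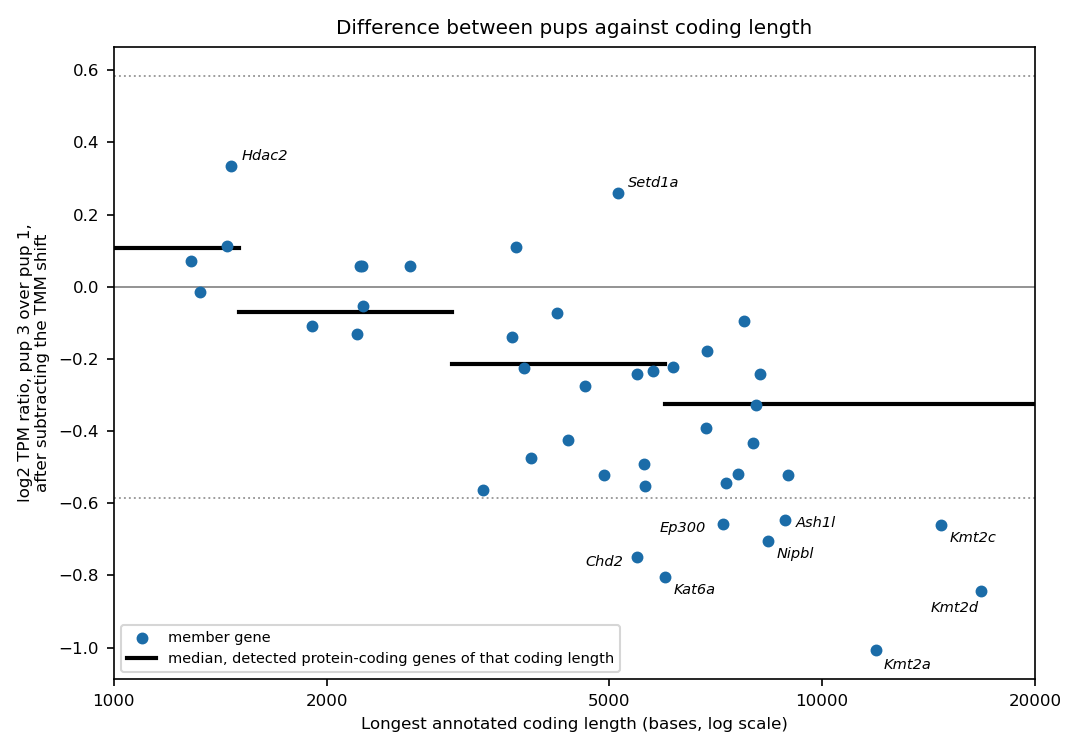
Log2 TPM ratio of pup 3 over pup 1 after the TMM shift, against the longest annotated coding length on a log axis, for the 42 regulators (points) and as medians of detected protein-coding genes in 4 length bins (bars). Dotted lines mark 1.5-fold. The points fall from Hdac2 at 0.33 to Kmt2a at −1.01, and the bars fall from 0.11 to −0.32.

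The partner genes that build complexes with these regulators were measured in the same way, as 60 genes in 7 lists. Of these, 59 reached 1 TPM in both pups, and their median level was 19.4 TPM. After the shift 34 of 60 were lower in pup 3, against 49.5% of all genes. Jarid2 and Tbl1xr1 were 1.5-fold or more lower, 2 of 60 where 7.87% of all genes were. Jarid2, a PRC2 cofactor, had 14.3 TPM in pup 1 and 7.34 TPM in pup 3. Tbl1xr1, an NCoR subunit, had 5.41 and 2.80 TPM.

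Each complex spanned a wide range of levels around its disease genes. Among PRC2 partners, the histone chaperone Rbbp4 was the highest with 233.7 and 240.6 TPM, and Phf19 the lowest with 1.33 and 0.89 TPM. Among partners of the lysine 4 methyltransferases, the shared subunit Dpy30 had 160.2 and 167.9 TPM, and the enzyme Setd1b 5.25 and 3.95 TPM. Kmt2a to Kmt2d had at most 9.71 TPM. In the NuRD and CoREST list Mbd3 had 170.3 and 153.1 TPM and Rcor1 3.65 and 2.65 TPM. In the corepressor list of HDAC3 and SIN3, Sin3b had 247.7 and 272.5 TPM, and Tbl1xr1 was the lowest. Among partners of lysine 9 and lysine 36 methylation, the chromodomain protein Morf4l1 had 615.4 and 580.9 TPM, above every one of the 42 regulators, and Suv39h2 6.63 and 7.32 TPM. Of the KAT6 partners, Meaf6 had 131.3 and 110.6 TPM and Brpf3 2.13 and 1.23 TPM. Among cohesin partners, Mau2, which binds NIPBL, had 38.1 and 29.7 TPM, and Esco2, a cohesin acetyltransferase of dividing cells, 2.17 and 1.74 TPM. Mau2 was thus above Nipbl in both pups.

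Position in the genome gave few shared neighbours. The 42 genes lie on 19 chromosomes, and Kdm6b and Chd3 on chromosome 11 are the only 2 within 100 kb of each other, 29101 bases apart. A gene on the opposite strand overlaps 13 of them, and for Kmt2e, Ash1l, Kdm1a and Ctcf such a gene reached 1 TPM in both pups. Kmt2e overlaps Srpk2, which had 37.0 and 28.6 TPM, and Kdm1a overlaps Luzp1, which had 42.9 and 28.5 TPM. Expected counts of Kdm1a and Luzp1 were whole in both pups. Those of Kmt2e and Srpk2, of Ash1l and Dap3, and of Ctcf and Gm5914 were fractional. Added together, the counts of Kmt2e and Srpk2 were whole in both pups, as were those of Ash1l and Dap3. Whether the counting kept strands apart was not tested. Expected counts lay within 0.005 of a whole number in both pups for 30 of the 42 genes, against 73.2% of detected protein-coding genes.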

How the data were processed

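Total RNA-seq of 2 forebrains gave a gene and a transcript table each. Expected counts, TPM, posterior mean TPM and the percent of a gene's TPM held by each transcript were deposited by the authors, per the file headers. The deposited notes name mm10 and GENCODE M4. No source used here names the aligner or quantifier or states the strandedness. Symbols, biotypes, coding lengths and exons came from GENCODE M21 on GRCm38, matched by identifier without version for 42462 of 43346 genes. Members, partner lists, markers and pairs were chosen with earlier results of these data known. Genes named with transcripts were those with noncoding or differing leaders, leader shares 10 or more percentage points apart between pups, the highest gene of each role, and Kdm1a and Ehmt2. For partners they were the highest and lowest of each list and those 1.5-fold apart. Other transcripts were named after their values were seen. The pseudocount was 0.1, so ratios of low genes are understated. Scaling used TMM from edgeR 4.0.16 in R 4.3.3 over 16815 genes passing filterByExpr (minimum count 10, counts rounded), with DESeq2 1.42.0 size factors as an alternative. A list was described by its counts and median, and no test across genes was run because both libraries form 1 group. The 1.5-fold rule was tested on simulated libraries with known fold changes, with the median log2 ratio subtracted in place of the TMM shift. Tables and figures were made with Python 3.11.15, pandas 2.3.3, numpy 2.4.6 and matplotlib 3.10.9. Exon sequences came from GENCODE M21 transcripts.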

Additional observations from a re-analysis of the deposited data

How the results depend on the processing

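The number of regulators 1.5-fold or more apart between pups was 8. It was 20 without the shift subtracted, 5 with a pseudocount of 1, 5 from expected counts with TMM scaling, 4 from long coding transcripts, and 1 when a 2-fold difference was required. It was 8 with DESeq2 size factors, posterior mean TPM or no filter on low values. Kmt2a was among them in every one of these. The median share of TPM in long coding transcripts, 86.2%, became 80.9% at a coding length of 90% of the longest, 79.2% from posterior mean TPM and 95.6% from expected counts, and ranged from 83.3% to 86.5% with either pup left out. The log2 ratio of Kmt2c over Kmt2d turned from 0.93 to −1.21 on long coding transcripts. The causes of these changes were not tested. The median level was 10.9 to 16.2 TPM with either pup left out, and 38 of 42 regulators reached a stricter 5 TPM. By share of counts 41 of 42 leading transcripts were coding. No paired analysis was possible because both libraries belong to 1 group. Chd4-208 held under 5% of the gene's counts, and 2 libraries give a poor estimate of the spread. Long coding transcripts, expected-count scaling and the 90% limit were added after the data were seen.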

Other observations

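RefSeq promoters on GRCm38.p6, taken as 300 bases around the start of a gene, were matched by symbol for 28 of the 42 regulators and gave 32 promoters. The letters CG were counted in each, and since CG reads the same on both strands, each step was counted once. The median was 31.5 CG steps per promoter, against 20 over 13147 promoters of detected protein-coding genes and 7 over all 32851 promoters. Of the 32 regulator promoters, 31 (96.9%) held 10 or more, against 78.8% of those of detected protein-coding genes and 43.5% of all. Kmt2c had the most with 56, followed by Crebbp with 49 and Ctcf with 47. The promoter matched for Setd5 held 1. This describes base composition only, and no methylation was measured here.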
